A study of Mus musculus with 15 samples.

Results

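Genes of the collagen matrix and of its remodelling were examined in mouse gastrocnemius, a large muscle of the calf. Members were taken by symbol from the deposited count table: symbols made of Col, Timp or Mmp followed by a digit, symbols starting with Lox or Plod, and Fn1, Sparc, Postn, Bgn, Fbn1, Eln, Ctgf, Tgfb1, Tgfb2, Tgfb3 and Serpinh1. This gave 71 of the 13602 genes in the table, of which 35 encode collagen chains. The symbol rule also caught Col4a3bp, which encodes a ceramide transfer protein and no collagen. Males that lack Cpt1b in skeletal muscle (knockout, 7 mice) were set against floxed wild-type males (control, 8 mice). Cpt1b is the muscle form of the enzyme that hands fatty acids over to mitochondria for oxidation. The labels give chow feeding for 12 to 14 weeks in the titles and protocol, whereas the diet field of every sample, knockout and control, reads 45% HFD. Which promoter drove the deletion, and how old the mice were, is not given in the labels.

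Muscle fibres lie in a basement membrane of type IV collagen and laminin, and bundles of fibres are wrapped in a connective tissue whose strength comes from fibrils of type I and type III collagen. Most of this matrix is made by fibroblasts between the fibres, and it runs on into the tendon. Collagen chains are hydroxylated by Plod enzymes, folded with the chaperone Serpinh1, crosslinked by Lox enzymes, cut by matrix metalloproteinases (MMPs) and shielded from them by the tissue inhibitors of metalloproteinases (TIMPs), while TGF-beta raises the synthesis of many of these genes.

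SAGE libraries were sequenced, where each transcript yields a tag from close to its 3' end and a longer transcript does not yield more tags. Total counts ran from 9390065 to 19397255 in knockouts and from 8334436 to 16238258 in controls. Levels are in CPM, tag counts scaled to a common adjusted library total, and fold changes are log2 of knockout over control with their standard error (SE). Members took 0.332% ± 0.0784 of all tags in knockouts and 0.462% ± 0.0608 in controls (SD, n = 7 and n = 8). Cpt1b tags had a median of 3.83 CPM in knockouts and 6.51 CPM in controls (log2 -1.03 ± 0.31, edgeR adjusted p = 0.103). A 3' tag may lie outside the deleted part, which was not tested. The labelled tissue was checked on 12 markers of muscle fibres, which had tags in every library and summed to 132440 to 191338 CPM in knockouts and 142541 to 200050 CPM in controls; among them Mb rose (log2 0.71 ± 0.17, edgeR adjusted p = 0.0376) and Tnnt3 fell (-0.65 ± 0.13, 0.00629). Knockout replicate 4 and control replicate 7 stood apart on the leading principal component, which held 44.6% of the variance, so members whose call changed without both are also given that way. In whole muscle, fewer cells of a type and less RNA per cell cannot be told apart.

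Of the 71 members, 50 had a promoter sequence in the RefSeq table of GRCm38.p6. The stretches below belong to Col1a2, Col3a1 and Col6a2, shown because the tag ratios of these abundant chains to others are compared further on. Each is the part of the 250 bases before the start annotated by RefSeq that lies outside the exons that GENCODE gives the gene, on the gene's strand. The Col1a2 stretch lies inside the GENCODE span of the gene, which begins further upstream, at 4504814. Capitals mark CAGAC or, for the other strand, its reverse complement GTCTG, the core bound by Smad proteins downstream of TGF-beta.
Col1a2, chr6:4505370-4505492, plus strand: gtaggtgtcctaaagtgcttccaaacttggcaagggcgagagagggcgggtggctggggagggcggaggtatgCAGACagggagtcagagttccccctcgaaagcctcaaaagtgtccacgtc
Col3a1, chr1:45311288-45311537, plus strand: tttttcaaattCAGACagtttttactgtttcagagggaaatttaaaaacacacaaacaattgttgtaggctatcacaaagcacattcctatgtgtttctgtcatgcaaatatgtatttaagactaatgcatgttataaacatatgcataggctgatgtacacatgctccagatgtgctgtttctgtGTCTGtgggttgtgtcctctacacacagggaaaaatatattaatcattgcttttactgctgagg
Col6a2, chr10:76623631-76623880, minus strand: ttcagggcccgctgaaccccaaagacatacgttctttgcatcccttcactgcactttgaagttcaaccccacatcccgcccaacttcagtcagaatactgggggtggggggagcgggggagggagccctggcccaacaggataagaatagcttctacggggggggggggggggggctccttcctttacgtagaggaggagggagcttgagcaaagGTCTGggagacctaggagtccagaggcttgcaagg
The motif occurred 1 time in the 123 bases of Col1a2, 2 times in the 250 bases of Col3a1 and 1 time in the 250 bases of Col6a2. Of 32851 promoter windows in the table, 24.2% held it in the 123 bases at the same place as the Col1a2 stretch and 42.2% in 250 bases. The GC content was 59.3% for Col1a2, 35.2% for Col3a1 and 59.2% for Col6a2.

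Matrix genes tended to be lower in knockout muscle, and Timp2 alone passed the test. A low-count filter left 60 of the 71 members among 11062 genes tested. By edgeR with an adjusted p of 0.05 over all genes tested, 1 member fell, against 0.497% of all genes called lower, and 0 rose, against 1.67% of all genes called higher (2.17% in either direction). DESeq2 called 5 of 68 members lower and 0 higher, where it called 1.09% of all genes lower, 2.32% higher and 3.41% in either direction. Without knockout replicate 4 and control replicate 7, edgeR called 6 of 57 members lower (1.35% of all genes), and with the leading component as a covariate 3 of 60 (1.05% of all genes). At an unadjusted edgeR p under 0.05, 16 of 60 members (26.7%) were lower and 0 higher, where 5.92% of all genes tested were lower, 7.65% higher and 13.6% either. The fold change was negative for 44 of 60 members (73.3%) and for 49.4% of all genes tested. The median log2 fold change was -0.21 over the members and 0.00466 over all genes. Members are not independent of each other. The smallest adjusted p of any member other than Timp2 was 0.0771, that of Col6a1.

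**Figure D1:**
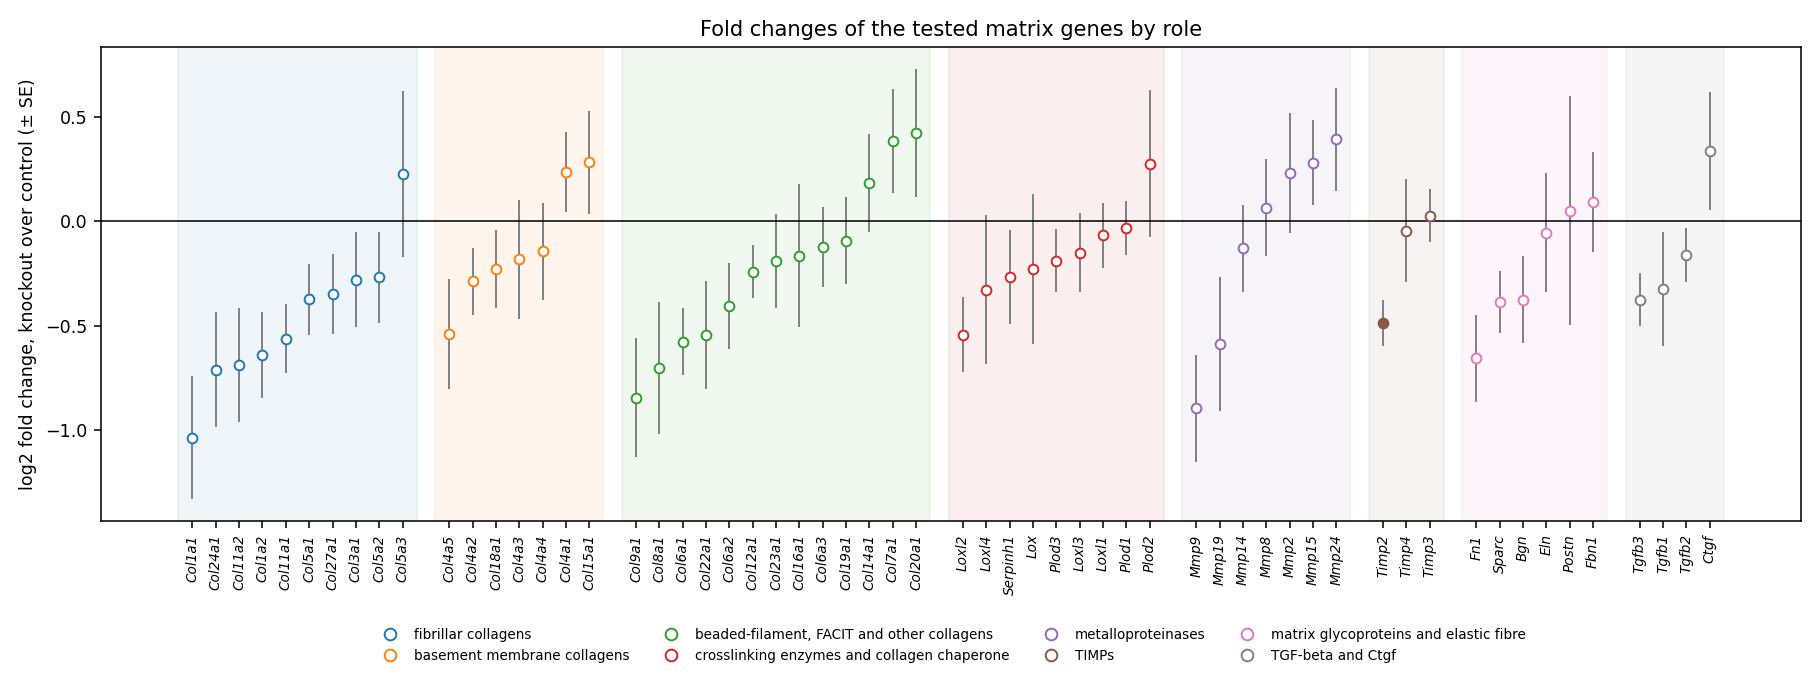
Log2 fold change of knockout over control (± SE) for the tested matrix genes, ordered by role along the horizontal axis, with a filled point for an edgeR adjusted p under 0.05. Of the fibrillar collagens 9 of 10 lie below 0, and Timp2 is the filled point.

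Among the TIMPs, secreted proteins that bind and block metalloproteinases, Timp2 fell in knockout muscle. Timp2 also takes part in the activation of Mmp2 at the cell surface. This protein-coding gene sits on the minus strand of chromosome 11 (GRCm38, 118301069 to 118355740). It had 79.3 CPM in the lowest, 94.6 in the median and 114 in the highest knockout, against 118, 137 and 146 CPM in controls. Every knockout library lay below every control library, as for 0.226% of all genes tested, while the opposite separation, found in 0 tested members, held for 0.967%. The log2 fold change was -0.49 ± 0.11 (edgeR adjusted p = 0.0215). The call was lost without control replicate 6 (adjusted p = 0.0532), knockout replicate 1 (0.0547), knockout replicate 2 (0.0644) or knockout replicate 5 (0.0532), with the log2 value between -0.47 and -0.44 in these fits. Cep295nl lies inside Timp2 on the same strand, so tags of the pair may not be separable. Timp3, the TIMP that is held in the matrix, had a median of 65.9 CPM in knockouts and 69.8 CPM in controls (log2 0.03 ± 0.13, adjusted p = 0.930). Timp4 had a median of 9.17 CPM in knockouts and 8.57 CPM in controls (log2 -0.04 ± 0.24, adjusted p = 0.944). For both the range in knockouts overlapped the range in controls, and their fold changes were within their SE.

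**Figure D2:**
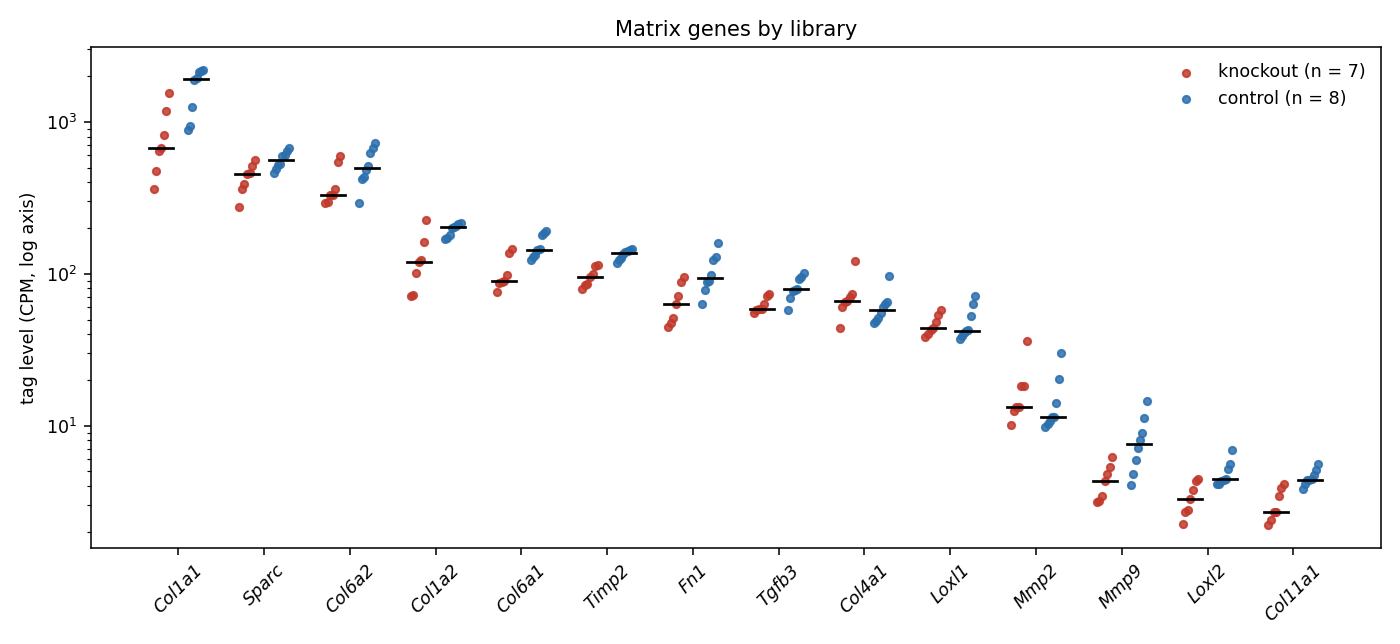
Tag level in CPM on a log axis for 14 matrix genes, with a point for each knockout library at left and each control library at right, and a bar at the median. Timp2 is separated between the groups, while the other genes overlap.

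The fibrillar collagens, which form the tension-bearing fibrils, were the class with the lowest median, at a log2 fold change of -0.47. Of its 10 genes, all tested, 0 passed over all genes, 6 were lower at an unadjusted edgeR p under 0.05, and 9 had a negative fold change. Summed over the class, levels ran from 631 to 2344 CPM in knockouts, with a median of 1096, and from 1419 to 2999 CPM in controls, with a median of 2568. Knockout replicates 3, 4 and 6 reached into the control range and the other 4 lay below it.

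Col1a1, the alpha 1 chain of type I collagen (chromosome 11, 94936224 to 94953042), carried most of this sum. It had 359, 672 and 1555 CPM in the lowest, median and highest knockout, against 889, 1911 and 2188 CPM in the same order in controls. All 7 knockouts lay below the control median and 5 below the lowest control. The log2 difference of -1.03 ± 0.30 did not pass (edgeR adjusted p = 0.0863). It passed by DESeq2 (adjusted p = 0.0188), without control replicate 7 (0.0344), without knockout replicate 3 (log2 -1.27, 0.0215) and without knockout replicate 4 and control replicate 7 together (log2 -1.13, 0.0428). Knockout replicate 3, at 1555 CPM, was the highest knockout library for Col1a1.

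Col1a2, the partner chain in type I collagen (chromosome 6, 4504814 to 4541544), had 71.6, 120 and 225 CPM in the lowest, median and highest knockout. In controls it had 169, 202 and 216 CPM. The controls were tightly grouped, 6 of 7 knockouts lay below all of them and knockout replicate 4 lay above them all. The log2 difference was -0.64 ± 0.21 (edgeR adjusted p = 0.139). Without knockout replicate 4 it was -0.85 (adjusted p = 0.0090), without knockout replicate 4 and control replicate 7 together -0.83 (adjusted p = 0.0073), and with the leading principal component as a covariate -0.79 (adjusted p = 0.0425). Col11a1, a minor fibrillar chain, had 2.23, 2.72 and 4.14 CPM in knockouts and 3.85, 4.42 and 5.59 CPM in controls. Its log2 difference was -0.56 ± 0.16 (edgeR adjusted p = 0.0966), and it passed by DESeq2 (0.0409), without knockout replicate 4 (0.0425), without that library and control replicate 7 together (0.0434) and with the leading component as a covariate (0.0211).

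Col3a1, the chain of type III collagen, had 180, 301 and 593 CPM in the lowest, median and highest knockout, against 322, 383 and 610 CPM in controls. The ranges overlapped widely, and the log2 difference was -0.28 ± 0.23 (edgeR adjusted p = 0.599). The type V chains that start fibrils gave log2 values of -0.37 ± 0.17 for Col5a1, -0.27 ± 0.22 for Col5a2 and 0.23 ± 0.40 for Col5a3. Col24a1 (-0.71 ± 0.27), Col11a2 (-0.69 ± 0.27) and Col27a1 (-0.35 ± 0.19) completed the class, and the smallest edgeR adjusted p of these 6 genes was 0.254.

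The ratio of Col1a1 to Col3a1 tags in a library needs no scaling of totals. This pair and the other chain pairs were chosen after the values had been seen, so the ratios are compared between the groups as a description with no test. Col1a1 to Col3a1 had a lowest, median and highest value of 2.0, 2.25 and 2.63 in knockouts and of 2.52, 4.12 and 5.63 in controls. The knockouts were tightly grouped, and only control replicate 7 reached into their range. The mean log2 ratio was 1.23 in knockouts and 1.98 in controls, a difference of -0.74. Without knockout replicate 4 and control replicate 7 the ratios ran from 2.0 to 2.63 in knockouts and from 2.68 to 5.63 in controls. The lack of overlap there follows from the choice of libraries, since control replicate 7 was the only control within the knockout range. The ratio of Col1a1 to Col1a2 had a median of 6.60 in knockouts and 9.53 in controls, with wide overlap (log2 difference -0.37). With the other type I chain the groups overlapped too: Col1a2 to Col3a1 had a lowest, median and highest ratio of 0.274, 0.338 and 0.601 in knockouts and of 0.334, 0.513 and 0.579 in controls (log2 difference -0.38). The ratio of the type VI chains Col6a2 to Col6a1 had a median of 3.79 in knockouts and 3.46 in controls (log2 difference 0.19). Because a tag may be captured better from some transcripts than from others, these ratios compare libraries and not the amounts of chain.

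**Figure D3:**
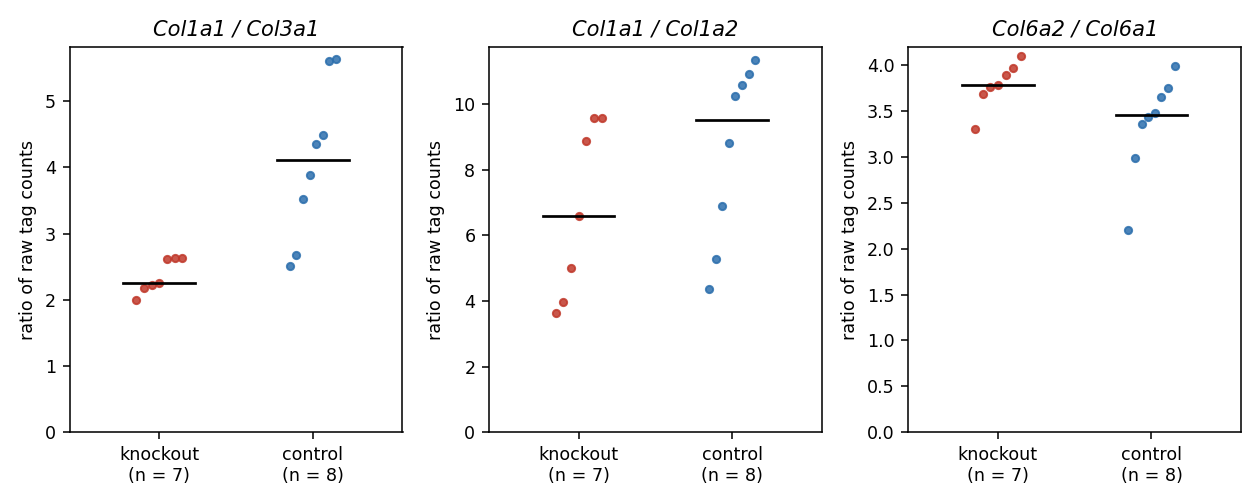
Ratios of raw tag counts for 3 pairs of collagen chains, with a point for each knockout library at left and each control library at right, and a bar at the median. The Col1a1 to Col3a1 ratio lies between 2.0 and 2.63 in knockouts and between 2.52 and 5.63 in controls.

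The ratios of Col1a1 to Col1a2 and to Col3a1, chosen as above, were compared with the leading principal component of all genes tested. Col1a1, Col1a2 and Col3a1 were themselves among these genes. The p-values here and in the next paragraph are a description only, since the ratios were chosen after the values had been seen. The log2 ratio of Col1a1 to Col1a2 had Pearson's r of -0.94 and Spearman's rho of -0.91 with the component's score over the 15 libraries (permutation p = 1e-05, the smallest that 100000 resamples can give, and p = 3e-05; adjusted p = 6e-05 and 9e-05 over 6 relations). Within knockouts r was -0.92 and rho -0.89 (exact permutation p = 0.000794 and 0.0123, adjusted 0.00107 and 0.0185). Within controls r was -0.94 and rho -0.83 (exact permutation p = 0.000843 and 0.0154, adjusted 0.00107 and 0.0185). Leaving out the 2 libraries farthest along the component gave r = -0.93 over all libraries, -0.96 within knockouts and -0.70 within controls. The ratio was lowest in knockout replicate 4 (3.63) and highest in control replicate 5 (11.3). The score had a median of 15 in knockouts and -22.0 in controls, with ranges that overlapped. The resamples over all libraries ignored group, so their p-values also take in the difference between the groups.

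For the log2 ratio of Col1a1 to Col3a1 against the same score, r was -0.77 and rho -0.88 over all libraries (permutation p = 0.00089 and 3e-05, adjusted 0.00107 and 9e-05). Within knockouts r was -0.72 and rho -0.79 (exact permutation p = 0.0659 and 0.048, adjusted 0.0659 and 0.048). Within controls r was -0.93 and rho -0.98 (exact permutation p = 0.000223 and 0.000397, adjusted 0.00067 and 0.000794). Without the 2 farthest libraries r was -0.86 over all, -0.85 within knockouts and -0.90 within controls.

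**Figure D4:**
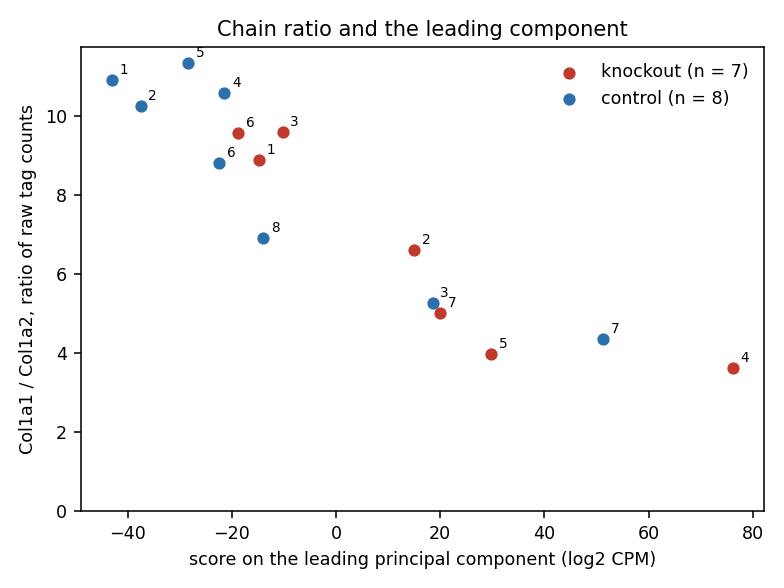
Ratio of Col1a1 to Col1a2 raw tag counts against each library's score on the leading principal component of log2 CPM, with the replicate number beside each point. The ratio is lowest in knockout replicate 4, at 3.63, which has the highest score.

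Within knockouts, Col1a1 and Col3a1 ranked the 7 libraries in the same order. Of 6 partner genes, each compared with Col1a1 in each group on log2 CPM (12 relations), Col3a1 had r = 0.99 and rho = 1.0 in knockouts (exact permutation p = 0.000198 and 0.000397, adjusted p = 0.00238 and 0.00476). Without the 2 libraries farthest from the median of Col1a1 it had r = 0.96. In controls it had r = 0.62 and rho = 0.67 (exact permutation p = 0.0981 and 0.0831, adjusted 0.196 and 0.142). Fn1 had r = 0.92 and rho = 0.89 with Col1a1 in knockouts (exact permutation p = 0.00516 and 0.0123, adjusted 0.0310 and 0.0738, r = 0.95 without the 2 farthest) and r = 0.72 and rho = 0.74 in controls (adjusted exact permutation p = 0.120 and 0.115). Neither Col1a2, Sparc, Serpinh1 nor Col4a1 passed the adjustment in either group. For Serpinh1 r was -0.11 in knockouts and -0.74 in controls, and -0.14 in controls without the 2 farthest libraries. Whether any relation differed between the groups was not tested.

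**Figure D5:**
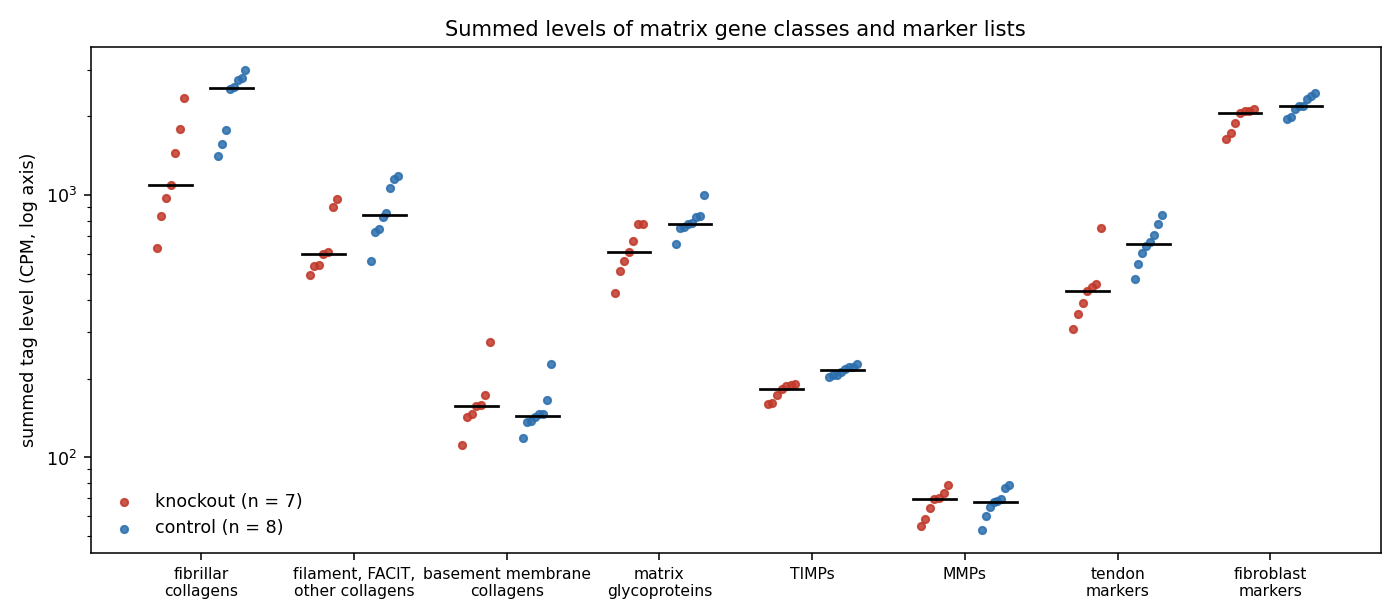
Summed tag level in CPM on a log axis for 6 classes of matrix genes and for tendon and fibroblast marker lists, with a point for each knockout library at left and each control library at right, and a bar at the median. Summed TIMP levels do not overlap, from 160 to 191 CPM in knockouts and from 203 to 227 CPM in controls. Most of this sum is Timp2, with a mean of 95.7 of 178 CPM in knockouts and 134 of 215 CPM in controls. Timp3 and Timp4 each overlap between the groups.

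Type VI collagen, a beaded filament that links the basement membrane of the fibre to the surrounding matrix, gave lower values in knockouts that did not pass. Col6a1 (chromosome 10, 76708792 to 76726168) had 75.6, 89.9 and 145 CPM in the lowest, median and highest knockout, against 123, 144 and 192 CPM in controls. Of the 7 knockouts 5 lay below every control. Its log2 difference was -0.58 ± 0.16 (edgeR adjusted p = 0.0771). It passed by DESeq2 (0.0217) and without control replicate 7 (0.0448), knockout replicate 3 (0.0437) or knockout replicate 6 (0.0275). Col6a2, the member of this class with the most tags, had 294, 330 and 595 CPM in knockouts and 293, 497 and 722 CPM in controls. Its ranges overlapped almost fully (log2 -0.40 ± 0.21, edgeR adjusted p = 0.403). Col6a3, the long chain of the same trimer, gave -0.12 ± 0.19.

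Of the 13 tested genes in the class of beaded-filament, FACIT and other collagens, 10 had a negative fold change, 4 were lower at an unadjusted edgeR p under 0.05, and 0 passed over all genes. FACIT collagens sit on the surface of fibrils. Among them Col9a1 gave a log2 value of -0.84 ± 0.29 and Col22a1, found at the muscle-tendon junction, -0.55 ± 0.26. Col9a1 had an edgeR adjusted p of 0.168, which became 0.0477 without control replicate 7 and ran up to 0.383 over the other alternatives, and its log2 value was -0.41 with the leading component as a covariate. Col12a1 gave -0.24 ± 0.13, Col8a1 -0.70 ± 0.32 and Col14a1 0.18 ± 0.23. Col7a1, the anchoring fibril collagen, had a median of 24.4 CPM in knockouts and 19.2 CPM in controls (log2 0.38 ± 0.25, edgeR adjusted p = 0.516), and with the leading component as a covariate the log2 value was 0.74 (adjusted p = 0.0316).

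Basement membrane collagens showed no member past the test. Of 7 tested genes 5 had a negative fold change, with a median of -0.18, and 0 had an unadjusted edgeR p under 0.05 in either direction. Col4a1, the main network-forming chain, had 44.2, 66.5 and 122 CPM in the lowest, median and highest knockout, against 47.5, 57.8 and 96.1 CPM in controls. The highest values belonged to knockout replicate 4 and control replicate 7, the libraries that stood apart. Its log2 difference was 0.23 ± 0.19 (edgeR adjusted p = 0.599), and -0.00428 with the leading component as a covariate. Col4a2, its partner chain, gave -0.29 ± 0.16. Col15a1, which bridges basement membrane and fibrils, had a median of 55.7 CPM in knockouts and 42.8 CPM in controls (log2 0.28 ± 0.25). Col18a1, the source of endostatin, gave -0.23 ± 0.19, and Col4a3, Col4a4 and Col4a5 gave -0.18, -0.14 and -0.54.

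Enzymes that modify and crosslink collagen had 0 of 9 members past the test, and 8 had a negative fold change. Loxl2, a lysyl oxidase-like enzyme that acts on collagen, had 2.27, 3.29 and 4.45 CPM in the lowest, median and highest knockout, against 4.11, 4.43 and 6.96 CPM in controls. Although 5 of 7 knockouts lay below every control, the log2 difference of -0.54 ± 0.18 did not pass (edgeR adjusted p = 0.158). Loxl1, which acts in elastic fibres, had 38.1, 43.9 and 57.8 CPM in knockouts and 37.2, 42.3 and 71.0 CPM in controls. The groups overlapped fully (log2 -0.07 ± 0.15, edgeR adjusted p = 0.858), and the sign turned without control replicate 4 (log2 0.03). The collagen chaperone Serpinh1 had a median of 40.4 CPM in knockouts and 43.6 CPM in controls (log2 -0.27 ± 0.23), with the spread in controls reaching 94.1 CPM. The lysyl hydroxylases gave log2 values of -0.03 ± 0.13 for Plod1, 0.28 ± 0.35 for Plod2 and -0.19 ± 0.15 for Plod3. Lox itself, the founding lysyl oxidase, gave -0.23 ± 0.36 at a mean of 20.7 tags a library.

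Among the MMPs, which cut matrix proteins, 0 of 7 tested members passed. Mmp9, a gelatin-cutting enzyme made largely by leukocytes, had 3.14, 4.32 and 6.23 CPM in the lowest, median and highest knockout, against 4.08, 7.58 and 14.6 CPM in controls. All 7 knockouts lay below the control median and 3 below the lowest control. Its log2 difference was -0.89 ± 0.26 (edgeR adjusted p = 0.0874), and it passed by DESeq2 (0.0263), without control replicate 7 (0.0243) and without knockout replicate 4 and control replicate 7 together (0.0372). Mmp2, the gelatin-cutting enzyme of fibroblasts, had 10.1, 13.3 and 35.9 CPM in knockouts and 9.81, 11.4 and 30.3 CPM in controls. Its highest value in each group came from knockout replicate 4 and control replicate 7, and the log2 difference of 0.23 ± 0.29 (edgeR adjusted p = 0.725) became -0.06 without knockout replicate 4. Mmp14, the membrane enzyme that activates Mmp2, gave -0.13 ± 0.21. Mmp8 gave 0.07 ± 0.23, Mmp15 0.28 ± 0.20, Mmp19 -0.59 ± 0.32 and Mmp24 0.39 ± 0.25. Summed MMP levels ran from 54.7 to 78.8 CPM in knockouts and from 52.8 to 78.2 CPM in controls.

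Of the 6 matrix glycoproteins and elastic fibre genes 0 passed. Fn1, fibronectin, on which fibrils are assembled, had 44.6, 63.4 and 95.3 CPM in the lowest, median and highest knockout, against 63.4, 94.4 and 159 CPM in controls. Of the knockouts 6 lay below the control median. Its log2 difference was -0.65 ± 0.21 (edgeR adjusted p = 0.135), and it passed without control replicate 7 (adjusted p = 0.0429) and without knockout replicate 4 and control replicate 7 together (0.0448). Sparc, a secreted collagen-binding protein, had 277, 453 and 556 CPM in knockouts and 461, 558 and 674 CPM in controls. Of the knockouts 5 lay below every control (log2 -0.39 ± 0.15, edgeR adjusted p = 0.242). The proteoglycan Bgn gave -0.37 ± 0.21, Eln, the elastin gene, -0.05 ± 0.29, and Fbn1, fibrillin of microfibrils, 0.09 ± 0.24. Postn, a protein of injured and growing matrix, gave 0.05 ± 0.55, with its highest values in knockout replicate 4 (20.3 CPM) and control replicate 7 (17.0 CPM). The Postn median was 4.09 CPM in knockouts and 2.43 CPM in controls, and all 7 knockouts lay above the control median.

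The TGF-beta ligands and Ctgf, a matricellular target of TGF-beta, had 0 of 4 members past the test. Tgfb3 had 54.9, 59.0 and 74.2 CPM in the lowest, median and highest knockout, against 58.1, 79.0 and 100.4 CPM in controls. All 7 knockouts lay below the control median (log2 -0.38 ± 0.13, edgeR adjusted p = 0.167), and the gene passed without control replicate 7 (adjusted p = 0.0429). Tgfb3 overlaps Ttll5 on the other strand, and whether tags were counted by strand is not given in the labels. Tgfb1 gave -0.32 ± 0.27 and Tgfb2 -0.16 ± 0.13. Ctgf had a median of 68.6 CPM in knockouts and 54.1 CPM in controls (log2 0.34 ± 0.28, edgeR adjusted p = 0.611), and all 7 knockouts lay above the control median.

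The filter removed 11 members with few tags, and among these Col25a1 was separated between the groups. Col25a1 encodes a membrane-bound collagen that takes part in the innervation of developing muscle. It was singled out after its values had been seen. It had 2, 6, 6, 7, 3, 3 and 5 tags in the knockouts and 1, 0, 0, 0, 1, 2, 0 and 0 tags in the controls, each in order of replicate number. In CPM every knockout (0.178 to 0.491) lay above every control (0 to 0.145), which held for 0.831% of all deposited genes. Pooled, 32 tags in knockouts against 4 in controls gave a 9.01-fold ratio per tag sequenced, with an exact 95% interval of 3.19 to 35.1 that covers counting error only. Without the filter edgeR gave a log2 value of 2.83 ± 0.60 (adjusted p = 0.0147). It was 1 of 71 members called higher in that fit, where 1.4% of all genes were called higher. The members' share was thus near that of all genes. DESeq2 gave 3.08 and no adjusted p. The other 10 members under the filter were Col28a1, Col4a6, Col6a6, Col8a2, Mmp3, Mmp11, Mmp12, Mmp16, Mmp17 and Mmp23, with means of 2.13 to 8.53 tags a library. Their ranges overlapped between the groups, and none of them was called by edgeR without the filter.

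Of 5 lists of neighbouring matrix genes, a single gene passed. In the list of TGF-beta receptors, Smads and targets, 1 of 24 tested genes fell and 0 rose, against 0.497% and 1.67% of all genes. It was Wisp1, a matricellular relative of Ctgf, with 1.23, 1.45 and 2.56 CPM in the lowest, median and highest knockout and 1.86, 3.10 and 6.09 CPM in controls (log2 -1.04 ± 0.24, edgeR adjusted p = 0.0239). The call was lost without control replicate 6 or without knockout replicate 1, 2, 5 or 7. Of 17 tested collagen-processing genes 0 passed and 12 had a negative fold change (median -0.09). The smallest p was that of Adamts2, the enzyme that removes the amino-terminal propeptide of fibrillar collagens, with a mean of 7.59 CPM in knockouts and 11.8 CPM in controls (log2 -0.63 ± 0.18, edgeR adjusted p = 0.0825), and it passed without knockout replicate 4 and control replicate 7 together. Of 11 collagen and matrix receptors 0 passed, with Ddr1, a collagen-binding kinase, at -0.50 ± 0.20 (adjusted p = 0.276). Of 10 laminin, nidogen, perlecan and agrin genes 0 passed, with the fibre laminin Lama2 at 0.34 ± 0.18 (adjusted p = 0.430). Of 21 other matrix proteases and inhibitors 0 passed, with the protease Adamts9 at 1.03 ± 0.36 (adjusted p = 0.186).

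Some markers of tendon fell in knockout muscle. Of 10 tendon markers, all with tags in every library, 9 were tested and 3 fell, where 0.497% of all genes were called lower: Cilp2 (log2 -1.06 ± 0.19, edgeR adjusted p = 0.0038), Chad (-0.72 ± 0.16, 0.0181) and Comp (-0.79 ± 0.18, 0.0241). Tnmd, a membrane protein of tendon cells, gave -0.74 ± 0.21 (adjusted p = 0.0918), Kera -0.57 ± 0.17 and Scx -0.59 ± 0.31, while Prg4 gave -0.20 ± 0.24, Thbs4 -0.10 ± 0.32 and Fmod 0.07 ± 0.39. Without knockout replicate 4 and control replicate 7 the tendon markers called lower were 4, with Kera added. The summed tendon level ran from 309 to 751 CPM in knockouts, with a median of 431, and from 480 to 845 CPM in controls, with a median of 653. The highest knockout was replicate 4 and the highest control was replicate 7. Of 12 fibroblast markers, all with tags in every library, 1 fell (0.497% of all genes were lower), Gsn, an actin-severing protein (log2 -0.54 ± 0.13, edgeR adjusted p = 0.0351), and without those 2 libraries Gsn and Dpt. Of the 12 fibroblast markers 7 had a negative and 5 a positive fold change, with a median of -0.15. At an unadjusted edgeR p under 0.05, 4 were lower and 0 higher. The fibroblast marker Pdgfra gave 0.03 ± 0.15 and Dcn -0.26 ± 0.12. The summed fibroblast level ran from 1641 to 2132 CPM in knockouts and from 1951 to 2465 CPM in controls. Summed markers of endothelium (280 to 370 CPM in knockouts, 294 to 387 in controls), macrophages (49.1 to 85.2 and 57.1 to 116 CPM) and smooth muscle (1764 to 2682 and 2308 to 3296 CPM) overlapped. Of the markers tested in these lists 0 of 9, 0 of 8 and 0 of 8 passed. At an unadjusted edgeR p under 0.05, 0, 2 and 3 of them were lower and 1, 0 and 0 higher. Of all genes tested, 5.92% were lower and 7.65% higher at that p. The median log2 fold change was 0.05 for endothelium, -0.22 for macrophages and -0.28 for smooth muscle. Of 9 adipocyte markers 1 rose (Pparg) and 1 fell (Lep), against 1.67% and 0.497% of all genes, with sums of 957 to 1705 CPM in knockouts and 916 to 1218 CPM in controls. Of 6 tested Schwann cell and 5 satellite cell markers 0 passed. The smooth muscle marker Cnn1 and the Schwann cell marker Sox10 had 0 tags in at least 1 library. The part of tendon or fibroblast content in the collagen values was not tested.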

How the data were processed

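Gastrocnemius RNA of 7 knockout and 8 control mice was made into SOLiD SAGE libraries from 500 ng of total RNA, per the labels' protocols. The authors deposited raw tag counts per gene symbol. They also deposited a signal table, which equals these counts divided by 1 factor per library (largest relative deviation 5.42e-10), and the submitters' processing notes name DESeq2, mm10 and GRCm38.p1. The name of the aligner and counter is not given in the sources used here. Empty lines in the count table (360) hold 0 counts and were dropped.

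All 13602 genes entered edgeR 4.0.16 (R 4.3.3, quasi-likelihood, robust, TMM, filterByExpr with a minimum count of 10), fitting group alone, with p-values adjusted by Benjamini-Hochberg over the 11062 genes kept. The biological coefficient of variation was 0.291. The SE is the log2 fold change over the square root of F. Log2 CPM used a prior count of 2. Correlations within a group used exact permutation tests, and correlations over all libraries 100000 resamples that ignored group. The fit and the correlation test were tested on simulated data. Alternatives were other scalings and filters, DESeq2 1.42.0, a replicate block, each library left out, and, chosen after seeing the data, 2 libraries left out and a component as covariate. Positions are from GENCODE M21 (GRCm38), where 71 members matched, 1 by synonym. Each library was taken as 1 animal, since the labels give equal numbers of both. Members and lists were chosen with earlier results of these data known. Values are given in full for members past the threshold, the 8 with the smallest p and the member with the highest mean CPM in each role class, and other genes are named by list.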

Additional observations from a re-analysis of the deposited data

Results flagged for a closer look

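In 3 of 28 groups of values (14 members in each of 2 groups) a library stood further from its neighbours than expected at the 95% level of Dixon's test, which chance gives in about 1 in 20 groups. Col4a1 had 122 CPM in knockout replicate 4, with the next knockout at 73.8 CPM. Col4a1 had 96.1 CPM in control replicate 7, with the next control at 65.0 CPM. Mmp2 had 35.9 CPM in knockout replicate 4, with the next knockout at 18.3 CPM. These are the libraries that stood apart on the leading principal component, and the cause was not tested.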

How the results depend on the processing

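Counts of calls rested on the tool and on single libraries. Members called lower numbered 1 in the reported fit, 5 by DESeq2, 6 without control replicate 7 and knockout replicate 4, 3 with the leading component as a covariate, and 0 to 7 with each library left out. Members called higher numbered 0, but 1 without the low-count filter (Col25a1) and 1 with the component as a covariate (Col7a1). All genes called lower numbered 55, but 145 by DESeq2, 148 without both libraries, 116 with the component, 19 under the replicate block and 30 to 154 with each library left out. All genes called higher numbered 185, but 310, 324 and 98 by DESeq2, the component and the block, and 131 to 311 with each library left out. Collagen-processing genes called lower numbered 0, but 1 by DESeq2, 1 without both libraries, and 0 to 1 with each left out. TGF-beta pathway genes called lower numbered 1, but 0 under the block, 2 with the component and 0 to 1 with each left out, and those called higher 0 to 1.

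The replicate numbers did not pair the animals (3 of 7 same-numbered pairs had a correlation over 0.1, and 1 of 7 knockouts correlated best with its own number). Under the replicate block Timp2 had a log2 value of -0.51 (adjusted p = 0.186) and Mmp9 was the member called. With each library left out Timp2 ran from -0.53 to -0.44. The Col1a1 to Col3a1 log2 difference ran from -0.83 to -0.67 with each left out and was -0.82 without both. Over all alternatives 18 of 60 tested members took both signs, among them Timp3, Timp4, Ctgf, Col15a1, Fbn1, Postn, Eln and Plod1, and none of the 18 was called under any. Of the members given in full, signs turned for Col4a1 (-0.00428 with the component), Loxl1 (0.032 without control replicate 4, and -0.13 to 0.032 with each library left out) and Mmp2 (-0.056 without knockout replicate 4, -0.056 to 0.47 with each library left out, and -0.22 with the component). The median of the members stayed between -0.27 and -0.16 with each left out. The cause of these shifts was not tested.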
